A study of Mus musculus with 20 samples.

Results

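Adding the NF-κB subunit c-Rel to TGF-β-cultured TH17 cells was followed across all gene counts in 4 RNA-seq libraries, which are 4 of the 12 libraries of the series with gene counts. They were chosen by their labels. Of these, 2 replicates are labelled Ad-c-Rel and 2 are labelled Ad-control, and all 4 come from TH17(β) cells of C57BL/6 mice. Per the labels' protocols, naive CD4+ T cells of lymph node or spleen were stimulated with plate-bound antibody to CD3ε (5 µg/ml) and antibody to CD28 (2 µg/ml). Both groups grew with IL-6 at 20 ng/ml and TGF-β1 at 2 ng/ml, and antibodies to IFN-γ and to IL-4 were added at 10 µg/ml each. The labels do not spell out the prefix Ad-, do not say when c-Rel was added or when RNA was taken, and do not say whether replicates are separate cultures or animals, so p-values measure only the spread between these libraries, which may be technical. The series title names a miR-21, Peli1 and c-Rel pathway and glycolysis in TH17 cells. Of 24862 genes in the tables, 11711 had enough reads to test.

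NF-κB is a family of transcription factors that wait in the cytoplasm, bound by IκB proteins, until signals from the T cell receptor, from CD28 or from cytokine receptors release them. c-Rel, made from the gene Rel, is the family member found mainly in lymphoid and myeloid cells and is known for driving Il2 and other cytokine genes after T cell activation. Many NF-κB target genes encode inhibitors of NF-κB itself, so that the response switches itself off. TH17 cells are helper T cells that make IL-17A and IL-17F, and cells raised with TGF-β1 and IL-6 are usually less inflammatory than those raised with IL-23.

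Gene counts summed to between 15421743 and 19930807 per library, and between 14183 and 14522 genes had at least 1 count. Lines of the tables that name no gene held 14.7% to 15.9% of each total. Replicates correlated at r = 0.993 (Ad-control) and 0.994 (Ad-c-Rel) across genes and differed by more than sampling noise, so each was kept as its own replicate. Markers of the labelled cell type were present in all 4 libraries: Cd4 was at 887 and 885 CPM with Ad-c-Rel and 918 and 886 CPM with Ad-control, and the TH17 cytokine gene Il17a was at 275 and 279 CPM with Ad-c-Rel and 144 and 148 CPM with Ad-control. Levels are given as CPM, counts scaled to a common library total with TMM factors, which corrects for depth but not for gene length, so they compare libraries and not genes.

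Rel itself (chromosome position chr11:23736847-23770969, build GRCm38.p6, the build of mm10) was at 10.5 and 6.97 CPM in the Ad-control libraries and 58.5 and 63.5 CPM in the Ad-c-Rel libraries. Both Ad-c-Rel libraries stood far above both Ad-control libraries. The means were 60.97 ± 3.51 CPM (SD, n = 2) and 8.73 ± 2.49 CPM (SD, n = 2), a 7.07-fold difference (log2 fold change 2.82, SE 0.145, adjusted p = 6.91e-09, edgeR quasi-likelihood test with Benjamini-Hochberg adjustment over all genes tested, used for every adjusted p below). The counts do not separate added from endogenous Rel transcript. On 1 common scaling of all 12 libraries, Rel was lowest in the Ad-control libraries (10.1 and 6.73 CPM). The Ad-c-Rel libraries reached 56.4 and 61.0 CPM, beside 56.4 and 61.9 CPM in TH17 cells sorted from the central nervous system and 216 and 188 CPM in those sorted from ileum. The sorted and the cultured cells differ in source and handling, so these levels are given side by side without a test.

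Many transcripts of NF-κB inhibitors, cytokines, chemokines, costimulatory receptors and immediate early genes were higher with Ad-c-Rel, while most of mitosis and a minority of DNA replication were lower. In all, 956 genes were called higher (8.16% of those tested) and 717 lower (6.12%) at an adjusted p under 0.05, or 14.3% in either direction. The shares of 8.16% and 6.12% are the background for every count of list members below. The median log2 fold change of all genes was −0.01, with 49.0% of genes above 0. At least 2-fold differences were found in 185 higher (1.58%) and 108 lower genes (0.922%). Values of the 2 groups did not overlap in 27.8% of genes on the higher side and 28.7% on the lower side, called or not, and in all genes called. The 2-fold higher genes started low. Of the 185, 71 (38.4%) had a mean under 1 CPM in the Ad-control libraries, against 5.84% of all genes tested. On the lower side 2 of the 108 (1.85%) did. The filter asks for enough reads in 2 libraries, so a gene near 0 in Ad-control could be tested only through Ad-c-Rel. These shares are therefore partly set by the filter. When libraries were scaled to T cell identity genes in place of TMM, 606 genes were higher and 829 lower, so the higher share of calls was 42.2% instead of 57.1%, and the median of all genes moved to −0.07.

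**Figure D1:**
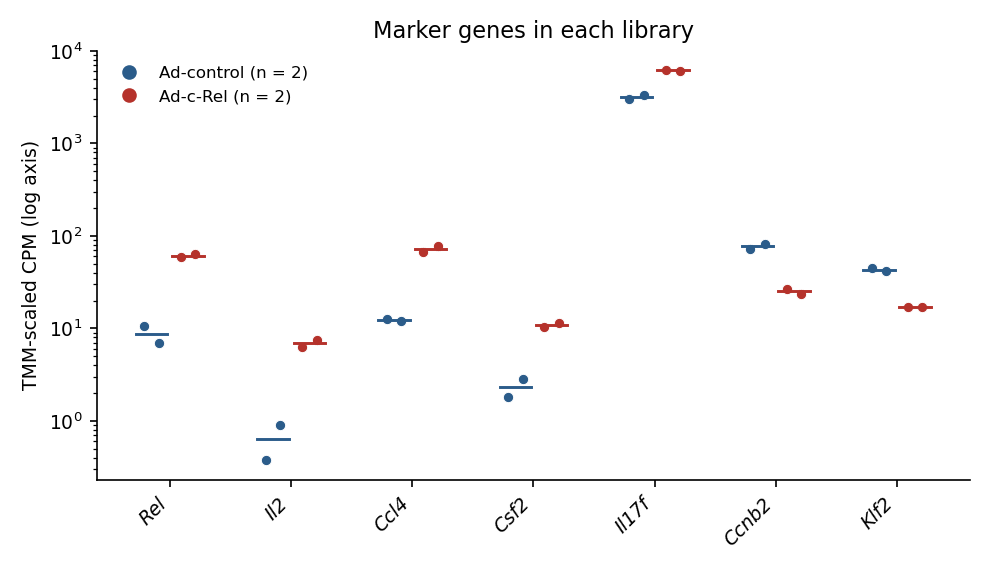
Points give TMM-scaled CPM (log axis) of each library and short bars the group means (n = 2 per group) for 7 genes. Rel, Il2, Ccl4, Csf2 and Il17f lie higher and Ccnb2 and Klf2 lower in both Ad-c-Rel libraries, without overlap.

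**Figure D2:**
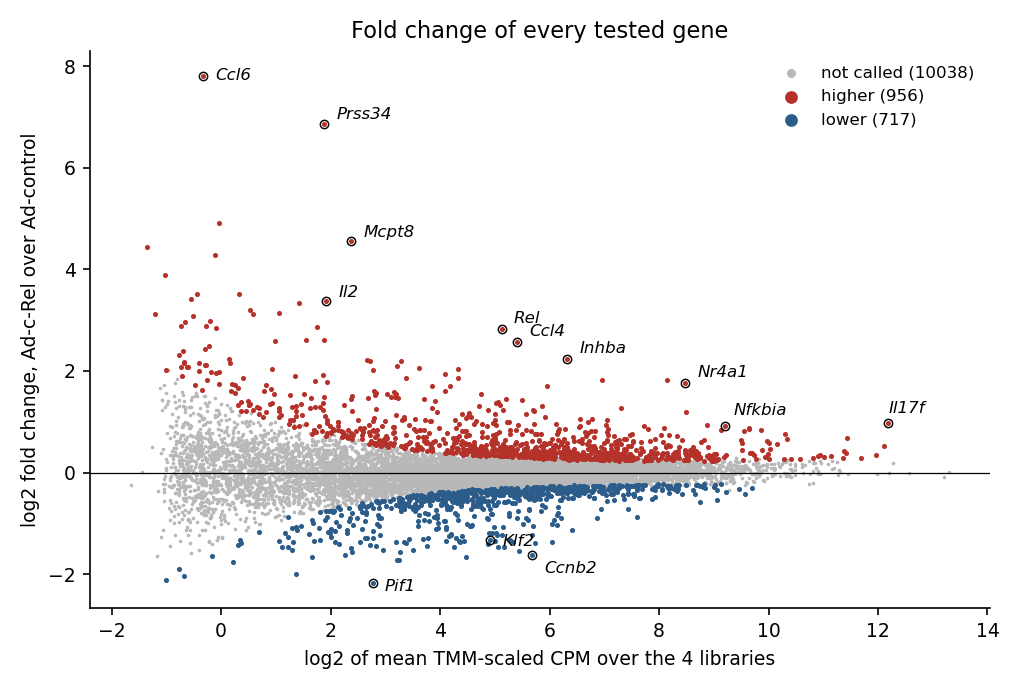
Each point is 1 of 11711 genes, with the log2 of its mean level over the 4 libraries on the horizontal axis and its log2 fold change, Ad-c-Rel over Ad-control, on the vertical axis; red points were called higher (956) and blue points lower (717). Increases reached larger sizes than decreases and the largest lay at low levels; Ccl6 had 0 reads in Ad-control, so its height in the plot is no measure of fold.

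Most genes on the NF-κB inhibitor list rose. Of 13 listed IκB proteins and feedback inhibitors, 9 were higher and 0 lower, with a median log2 fold change of 0.73. Nfkbia, which encodes IκBα, the inhibitor best known as an NF-κB target, was at 412 and 405 CPM in the Ad-control libraries and 761 and 788 CPM in the Ad-c-Rel libraries, with no overlap (log2 fold change 0.92, SE 0.0727, adjusted p = 5.92e-07). Tnip3, which encodes an A20-binding inhibitor, rose from 8.36 and 8.96 CPM to 30.5 and 32.4 CPM (1.86, SE 0.121, adjusted p = 1.06e-07). Nfkbid and Nfkbiz encode atypical IκB proteins that act in the nucleus. Nfkbid was at 56.1 and 52.2 CPM with Ad-c-Rel and 19.3 and 20.4 CPM with Ad-control (1.45, SE 0.101, adjusted p = 2.04e-07), and Nfkbiz was at 65.1 and 65.02 CPM with Ad-c-Rel and 31.1 and 27.8 CPM with Ad-control (1.15, SE 0.0962, adjusted p = 1.02e-06). In each of these genes the replicates lay close together and far from the other group. Nfkbib (0.94), Nfkbie (0.76), Tnfaip3 (0.73), which encodes the ubiquitin-editing enzyme A20, Tnip1 (0.51) and Tnfaip8 (0.49) were the other members called higher. Tnfaip8 stands in the list but is not an established NF-κB inhibitor. Bcl3 (−0.14), Tnip2 (0.06), Cyld (−0.02) and Otud7b (−0.01) were not called. The 9 higher members held in every fit that left out 1 library.

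The other NF-κB subunits changed less than Rel. Nfkb2, which encodes the p100 precursor of p52, was at 104 and 96.3 CPM in the Ad-control libraries and 165 and 170.3 CPM in the Ad-c-Rel libraries and did not overlap (log2 fold change 0.75, SE 0.0780, adjusted p = 7.68e-06). Rela passed narrowly (0.24, SE 0.0751, adjusted p = 0.046), and its call ended when any 1 of the 4 libraries was left out (adjusted p 0.0773 to 0.319). Nfkb1 (0.18, SE 0.107, adjusted p = 0.278) and Relb (0.07, SE 0.114, adjusted p = 0.735) were not called. Among 21 genes that act upstream of NF-κB, 5 were higher and 1 lower (median 0.12), and 3 were higher when Ad-c-Rel replicate 2 was left out. Traf1, an adaptor of TNF receptors, and Traf3, an adaptor that restrains the kinase NIK, led the higher genes at 0.61 ± 0.0750 SE and 0.57 ± 0.0833 SE. Ikbke, an IκB kinase relative, was at 0.41 ± 0.0838 SE. Peli1, a ubiquitin ligase named beside c-Rel in the series title, was at 607 and 704 CPM with Ad-c-Rel and 547 and 648 CPM with Ad-control, with overlapping groups, and was not called (0.13, SE 0.0925, adjusted p = 0.371).

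Sequences before the start of 4 higher genes are shown because Il2, Nfkbia, Tnip3 and Ccl20 are taken here as examples of 3 kinds of higher gene (cytokine, inhibitor, chemokine) whose windows hold matches. The same windows of Csf2, Ccl3, Il17f, Nfkbib and Bcl2a1b, which were higher too, held none. Each line gives the 250 bases that precede the RefSeq gene start in build GRCm38.p6, 5′ to 3′ on the strand of the gene. Capitals mark matches on either strand to GGNNTTTCC or to a looser NF-κB consensus (GGG, then any 5 bases, then CC), which can overlap each other, or, in Il2, AGAAATTCC, the other strand of a string known from the CD28 response element. The windows are chr3:37125955-37126204 (minus strand), chr12:55492648-55492897 (minus strand), chr6:65590148-65590397 (plus strand) and chr1:83116516-83116765 (plus strand).
Il2: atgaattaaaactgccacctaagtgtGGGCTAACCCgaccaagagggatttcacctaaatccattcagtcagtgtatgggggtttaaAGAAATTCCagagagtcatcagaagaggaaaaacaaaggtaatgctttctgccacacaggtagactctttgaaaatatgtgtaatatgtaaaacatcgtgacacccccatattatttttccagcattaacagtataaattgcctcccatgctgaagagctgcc
Nfkbia: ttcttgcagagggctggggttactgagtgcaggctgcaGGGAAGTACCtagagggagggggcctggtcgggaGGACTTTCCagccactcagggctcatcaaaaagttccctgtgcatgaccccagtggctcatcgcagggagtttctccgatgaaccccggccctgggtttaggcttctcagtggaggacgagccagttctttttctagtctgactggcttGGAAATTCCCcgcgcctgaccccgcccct
Tnip3: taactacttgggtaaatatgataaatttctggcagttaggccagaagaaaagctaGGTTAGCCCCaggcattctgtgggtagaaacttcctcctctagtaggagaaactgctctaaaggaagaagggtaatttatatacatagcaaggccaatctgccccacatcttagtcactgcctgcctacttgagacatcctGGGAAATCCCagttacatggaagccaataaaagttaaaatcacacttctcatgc
Ccl20: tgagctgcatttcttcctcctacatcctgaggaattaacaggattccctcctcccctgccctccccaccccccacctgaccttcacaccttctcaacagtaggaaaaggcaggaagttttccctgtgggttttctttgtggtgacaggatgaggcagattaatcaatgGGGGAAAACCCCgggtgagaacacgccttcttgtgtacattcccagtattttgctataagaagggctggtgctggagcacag
Of windows from 250 bases before to 50 bases after a start, 5.82% of all 32851 in the table and 6.06% of those of tested genes held GGNNTTTCC. The share was 8.05% for genes called higher and 10.7% for those at least 2-fold higher. It was 6.2% for genes called lower and 7.45% for those at least 2-fold lower. It was 5 of 13 windows (38.5%) for the inhibitor list and 7 of 12 (58.3%) for the chemokine list. These list shares take in every member with a window, called or not, and only 7 of 14 listed chemokines were tested. The looser consensus was in 67.2% of tested windows and 66.98% of those of higher genes. These matches describe letters and not binding.

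Most effector cytokines that could be tested rose. Of 30 listed cytokines, 23 had enough reads to test, and 17 of those were higher and 0 lower, with a median log2 fold change of 0.93. Il2, the T cell growth factor gene (chr3:37120713-37125954), was at 0.377 and 0.896 CPM in the Ad-control libraries and 6.36 and 7.49 CPM in the Ad-c-Rel libraries. It was low in both Ad-control libraries and well above them in both Ad-c-Rel libraries (log2 fold change 3.37, SE 0.313, adjusted p = 2.61e-06). With 6 and 18 counts in Ad-control, Il2 could be tested only through its Ad-c-Rel reads. The count of 17 higher cytokines and their list median are therefore partly set by the filter. Csf2, which encodes GM-CSF, a cytokine linked to inflammatory TH17 cells, rose from 1.82 and 2.84 CPM to 10.3 and 11.5 CPM (2.19, SE 0.213, adjusted p = 4e-06). Inhba encodes the subunit of activin A, a TGF-β family ligand. It was at 125 and 140.3 CPM with Ad-c-Rel and 28.9 and 27.2 CPM with Ad-control, a 4.72-fold difference with a small spread (2.24, SE 0.0936, adjusted p = 1.4e-09). Tnf was at 29.3 and 26.1 CPM with Ad-c-Rel and 10.1 and 7.12 CPM with Ad-control (1.7, SE 0.150, adjusted p = 1.59e-06).

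The TH17 cytokines, already abundant in Ad-control, rose less than 2-fold. Il17f was at 2991 and 3315 CPM in the Ad-control libraries and 6179.6 and 6138 CPM in the Ad-c-Rel libraries (log2 fold change 0.97, SE 0.0788, adjusted p = 8.04e-07). Il17a rose from 144 and 148 CPM to 275 and 279 CPM (0.92, SE 0.0735, adjusted p = 6.45e-07), and Il24, an IL-10 family cytokine, from 66.2 and 63.2 CPM to 125 and 120.4 CPM (0.93, SE 0.0806, adjusted p = 1.45e-06). These 3 genes had groups far apart relative to their replicates, at nearly the same fold. Genes of the list that were low in Ad-control, such as Areg, which encodes the growth factor amphiregulin (4.57 and 5.24 CPM with Ad-c-Rel and 0.691 and 0.299 CPM with Ad-control), had larger folds (3.35 ± 0.357 SE). Such genes needed their Ad-c-Rel reads to be tested, so the larger folds are partly set by the filter. Members called neither way included Ltb, Tgfb1, Tgfb3, Osm and Ifng, the last at 3.36 and 2.93 CPM with Ad-c-Rel and 2.70 and 0.647 CPM with Ad-control (0.98, SE 0.424, adjusted p = 0.139).

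Every chemokine with enough reads was higher. Of 14 listed, 7 were tested and 7 were higher, with a median of 2.85, while 4 had 0 reads in all 4 libraries. DESeq2 called 6 of them, and 4 passed when every library had to hold 10 counts. Ccl9 (5 and 6 counts with Ad-control), Ccl22 (2 counts over both Ad-control libraries) and Cxcl3 could be tested only through their Ad-c-Rel reads. The count of 7 and the median are therefore partly set by the filter. Ccl4, which attracts T cells and monocytes, was at 12.5 and 11.995 CPM in the Ad-control libraries and 67.5 and 77.7 CPM in the Ad-c-Rel libraries (log2 fold change 2.57, SE 0.111, adjusted p = 1.4e-09). Ccl3, a close relative, rose from 0.880 and 0.747 CPM to 4.98 and 6.86 CPM (2.86, SE 0.299, adjusted p = 7.85e-06). Ccl20, the ligand of the TH17 receptor CCR6, rose from 7.73 and 6.42 CPM to 26.3 and 27.8 CPM (1.94, SE 0.134, adjusted p = 1.92e-07). In all 3 the lowest Ad-c-Rel value was more than 3 times the highest Ad-control value. Ccl5 (1.6 ± 0.178 SE) and Ccl9 (3.12 ± 0.422 SE) were higher as well. Ccl5, Ccl9, Ccl6, Ccl3 and Ccl4 lie in 1 cluster from position 83525778 to 83664683 of chromosome 11, and Ccl4's RefSeq span overlaps that of Ccl3. The tables set ambiguous reads apart (2.49% to 2.61% of each total), so reads of the overlap could be missing from both genes.

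Transcripts of basophils and mast cells were higher in the same libraries. Of 16 listed markers, 10 were tested, 7 were higher and 0 lower (median 2.06), and only 1 was called when every library had to hold 10 counts. Their summed level was 21.3 and 20.6 CPM with Ad-control and 79.6 and 70.5 CPM with Ad-c-Rel, of which Kit, a growth factor receptor gene, made up 38.6 and 41.6 CPM with Ad-c-Rel and 13.9 and 13.3 CPM with Ad-control. Mcpt8, a basophil protease gene, was at 0.251 and 0.548 CPM in the Ad-control libraries and 10.6 and 9.36 CPM in the Ad-c-Rel libraries (log2 fold change 4.56, SE 0.298, adjusted p = 1.06e-07). Prss34, another protease of basophils and mast cells, had 2 and 0 counts with Ad-control and 163 and 84 with Ad-c-Rel, a ratio of 133 with a 95% exact counting interval of 36.6 to 1108. Hdc, which encodes the enzyme that makes histamine, rose from 0.566 and 1.44 CPM to 8.50 and 4.31 CPM (2.61, SE 0.379, adjusted p = 0.000207), and Cma1, a mast cell chymase gene, rose from 0.251 and 0.149 CPM to 2.49 and 2.12 CPM (3.52, SE 0.488, adjusted p = 0.000134). Prss34, Mcpt8, Cma1 and, narrowly, Hdc (9 and 29 counts with Ad-control) could be tested only through their Ad-c-Rel reads. The count of 7 higher among 10 tested and the median are therefore partly set by the filter. Cpa3, a mast cell carboxypeptidase gene, was higher by 2.04 ± 0.418 SE and Gata2, a transcription factor gene of these cells, by 2.08 ± 0.588 SE. The call of Cpa3 ended without Ad-control replicate 2 (adjusted p = 0.0576), and that of Gata2 without any 1 of 3 libraries (0.134 to 0.333). The remaining 9 markers were at 0, too low to test or not called. Mcpt4, Tpsb2 and Tpsab1 had 0 reads in every library. Fcer1a, which encodes the IgE-binding chain of their receptor, had 12 and 9 counts with Ad-control and 14 and 9 with Ad-c-Rel (log2 fold change 0.23, SE 0.532, adjusted p = 0.821). Ms4a2, the β chain of that receptor, had 4 and 1 counts with Ad-control and 3 and 1 with Ad-c-Rel. Fcer1g, the γ chain gene, which other myeloid cells also use and which stands in the myeloid list, was called higher. It had 2 and 0 counts with Ad-control and 18 and 13 with Ad-c-Rel, a ratio of 16.8 with an exact counting interval of 4.26 to 144, and its adjusted p was 0.0069, or 0.0861 without Ad-control replicate 2. In bulk RNA, more cells of a type and more RNA per cell cannot be told apart, and the part of these cells in the cytokine and chemokine results was not tested.

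**Figure D3:**
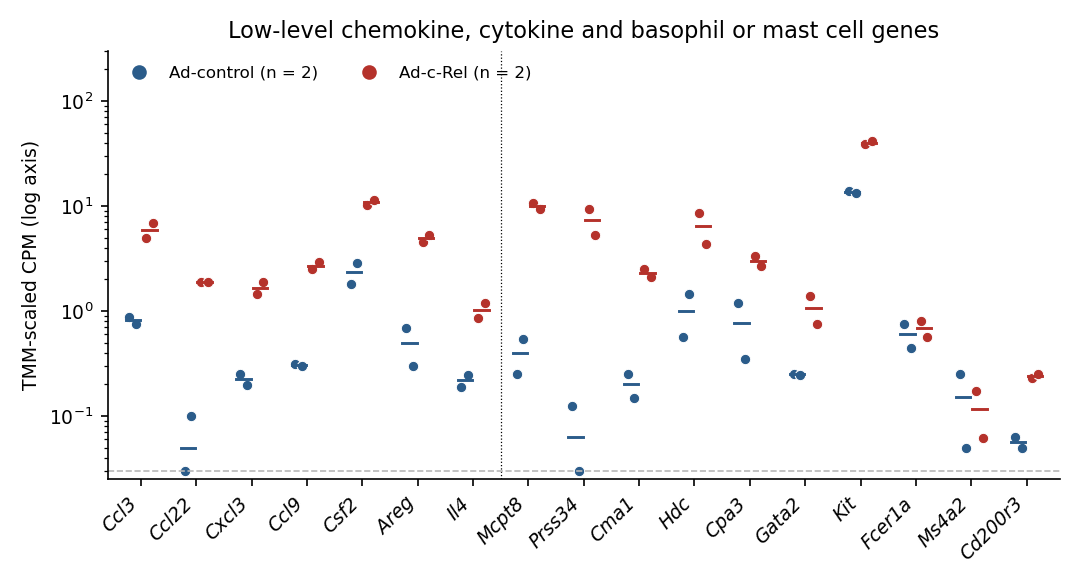
Points give TMM-scaled CPM (log axis) of 1 library each and short bars the mean of 2, for 7 chemokine and cytokine genes (left of the dotted line) and 10 basophil or mast cell genes (right); a value of 0 is drawn on the dashed line. Ad-c-Rel libraries sit above Ad-control libraries for every gene shown except Fcer1a and Ms4a2, whose groups overlap.

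Lists of other cell types held both absent and abundant members. Of 23 myeloid and dendritic markers, 7 were tested and 4 were higher, with summed levels of 806 and 912 CPM in Ad-control and 966 and 939 CPM in Ad-c-Rel, and 8 markers, among them C1qa, C1qb, C1qc, Mpeg1, Itgax and Fcgr1, had 0 reads in every library. Cd74, the invariant chain of MHC class II, was the abundant higher member (from 28.9 and 29.3 CPM to 91.2 and 98.6 CPM, 1.7, SE 0.0908, adjusted p = 1.05e-08), and Cd68 was higher by 0.59. H2-Ab1, an MHC class II gene at 829 and 795 CPM with Ad-c-Rel and 751 and 849.8 CPM with Ad-control, made up most of the sum and was not called. Of 10 B cell markers in the tables, 3 were tested and 1, Ebf1 (0.59, SE 0.119, adjusted p = 0.00383), was higher, with summed levels of 15.6 and 15.4 CPM against 23.9 and 24.5 CPM. The CD8 and NK markers summed to 243 and 243 CPM and to 253 and 260.1 CPM, with 1 of 5 tested members, Cd8b1, higher, with adjusted p values of 0.0715 when Ad-control replicate 2 was left out and 0.0761 when Ad-c-Rel replicate 1 was. The gamma-delta T and ILC markers summed to 310.5 and 324 CPM and to 371 and 374 CPM, with Kit the 1 higher member of 4 tested.

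Cytokine receptors changed in a few members. Of 28 tested, 9 were higher and 0 lower (median 0.07), and leaving out Ad-control replicate 1, or else Ad-c-Rel replicate 1, left 5. Il1r2, a decoy receptor that captures IL-1 without signalling, was at 116 and 134 CPM in the Ad-control libraries and 438 and 443 CPM in the Ad-c-Rel libraries (log2 fold change 1.81, SE 0.0838, adjusted p = 1.83e-09). It had the smallest p in the list, and its groups were far apart. Il23r, the receptor gene for IL-23, rose from 68.9 and 84.2 CPM to 120.1 and 132 CPM (0.71, SE 0.0965, adjusted p = 0.000102), and its partner chain gene Il12rb1 rose from 124 and 131 CPM to 187 and 191 CPM (0.57, SE 0.0755, adjusted p = 9e-05). Il2rg, the shared chain of the IL-2 receptor family, was higher by 0.39 ± 0.0876 SE. Il1rn, also among the 9, encodes an antagonist of the IL-1 receptor and not a receptor. It was low in both groups, at 0.377 and 0.398 CPM with Ad-control and 1.68 and 1.44 CPM with Ad-c-Rel. With 6 and 8 counts in Ad-control, Il1rn could be tested only through its Ad-c-Rel reads, so the count of 9 is partly set by the filter. The TGF-β receptor genes Tgfbr1 (−0.02) and Tgfbr2 (−0.02) and the signalling IL-1 receptor gene Il1r1 (0.22, adjusted p = 0.18) were not called.

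Costimulatory and inhibitory receptors were higher in 16 of 22 members and lower in 0 (median 0.36). Ctla4, which encodes an inhibitory receptor for B7 ligands, was at 550.5 and 534 CPM in the Ad-control libraries and 979.6 and 943 CPM in the Ad-c-Rel libraries (log2 fold change 0.83, SE 0.0730, adjusted p = 1.64e-06). Cd69, an early activation antigen that retains cells in tissue, rose from 68.4 and 74.01 CPM to 144 and 152 CPM (1.05, SE 0.0814, adjusted p = 5.45e-07). Cd83 rose from 19.7 and 22.6 CPM to 45.4 and 53.7 CPM (1.22, SE 0.114, adjusted p = 2.76e-06), Cd200 from 177 and 209 CPM to 342 and 366 CPM (0.87 ± 0.0863 SE) and Slamf7 from 93.1 and 98.7 CPM to 174 and 173 CPM (0.85 ± 0.0769 SE). None of these 5 genes had overlapping groups. Between 11 and 16 members were higher when 1 library was left out.

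Several TNF family ligand genes rose. Of 23 tested members of the family, 11 were higher and 0 lower (median 0.35), and 7 were higher without Ad-control replicate 1. Tnfsf9, the ligand of 4-1BB, was at 44.4 and 49.4 CPM in the Ad-control libraries and 88.5 and 93.97 CPM in the Ad-c-Rel libraries (log2 fold change 0.96, SE 0.0894, adjusted p = 2.7e-06). Tnfsf11, which encodes RANKL, a cytokine that drives osteoclasts, rose from 12.4 and 13.8 CPM to 27.02 and 31.8 CPM (1.16, SE 0.124, adjusted p = 9.68e-06). Tnfsf8, the ligand of CD30, rose from 84.8 and 85.01 CPM to 141 and 137 CPM (0.71, SE 0.0771, adjusted p = 1.19e-05), and Cd40lg from 64.8 and 63.6 CPM to 89.97 and 91.1 CPM (0.50, SE 0.0812, adjusted p = 0.000656). In each of these ligand genes both Ad-c-Rel values exceeded both Ad-control values, and the one receptor among the 5 members of smallest p was Tnfrsf25 (0.42 ± 0.0754 SE).

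Immediate early genes, which respond within minutes to receptor signals, were higher in 12 of 19 tested members and lower in 0 (median 0.57). Nr4a1, an orphan nuclear receptor gene induced by T cell receptor signals, was at 154 and 169 CPM in the Ad-control libraries and 551 and 547 CPM in the Ad-c-Rel libraries (log2 fold change 1.77, SE 0.0779, adjusted p = 1.4e-09). Egr1 rose from 64.1 and 57.8 CPM to 132 and 121 CPM (1.06, SE 0.0865, adjusted p = 8.24e-07), and Nr4a2 rose from 15.6 and 19.4 CPM to 40.1 and 42.9 CPM (1.24, SE 0.117, adjusted p = 3.15e-06). All 3 members of the Nr4a family were higher, with Nr4a3 at 2.01 ± 0.267 SE. Phosphatases and other brakes on MAP kinases were higher in 7 of 14 members and lower in 0 (median 0.38), or in 4 when scaled to T cell identity genes. Dusp5, which encodes a nuclear ERK phosphatase, rose from 7.98 and 7.86 CPM to 32.8 and 31.9 CPM (2.03, SE 0.120, adjusted p = 4.05e-08). Dusp4 was higher by 0.64 ± 0.0763 SE and Spry1, an inhibitor of receptor kinase signalling, by 0.78 ± 0.124 SE.

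**Figure D4:**
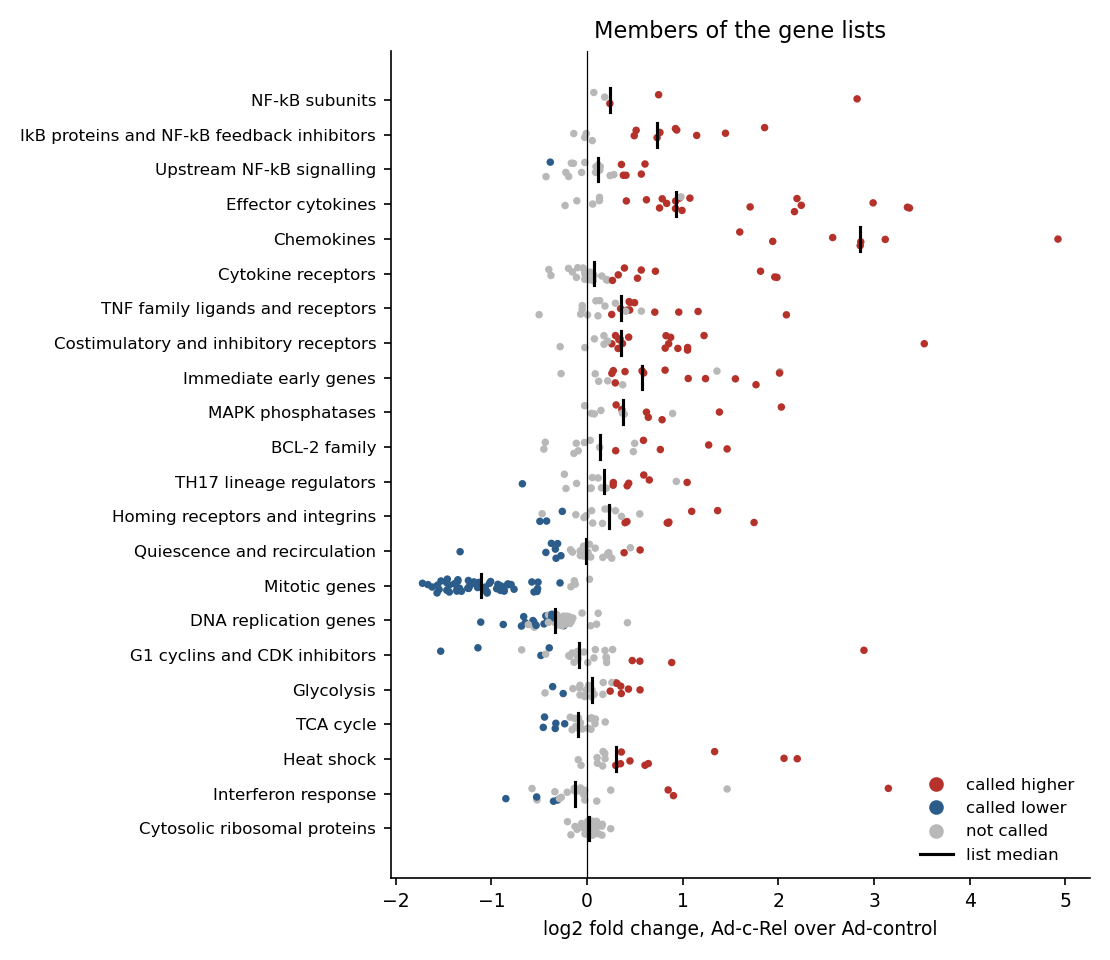
Each point is a tested member of a gene list (rows) at its log2 fold change, Ad-c-Rel over Ad-control (horizontal axis), in red if called higher, blue if called lower and grey if not called; black bars are list medians. The chemokine median lies at 2.85 and the mitotic median at −1.11, and ribosomal protein genes lie around 0.

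Of 18 regulators of the TH17 lineage, 7 were higher and 1 lower (median 0.18). The lower member was Sox4 (−0.68, SE 0.207, adjusted p = 0.0408), whose call ended without any 1 of the 4 libraries (adjusted p 0.101 to 0.146). Rora, a nuclear receptor gene of the lineage, was at 349.8 and 345 CPM in the Ad-control libraries and 500.4 and 548 CPM in the Ad-c-Rel libraries (log2 fold change 0.59, SE 0.0756, adjusted p = 5.8e-05). Bhlhe40, a factor linked to cytokine production, rose from 959 and 1058 CPM to 1527 and 1641 CPM (0.65, SE 0.0788, adjusted p = 3.45e-05). Id3 (1.05 ± 0.151 SE), Id2 (0.44 ± 0.0721 SE) and Irf4 (0.42 ± 0.0755 SE) were higher too. Among 18 regulators of other helper lineages, 4 were higher and 4 lower (median 0.14). Zbtb32, which encodes a repressor induced by activation, rose from 19.2 and 20.6 CPM to 44.2 and 43.7 CPM (1.14, SE 0.102, adjusted p = 1.78e-06), and Tox fell from 28.02 and 35.7 CPM to 20.7 and 21.1 CPM (−0.61, SE 0.122, adjusted p = 0.00334). Tbx21 (0.23), Gata3 (0.19) and Foxp3 (1.04), the regulators that mark TH1, TH2 and regulatory T cells, were not called.

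Among 27 genes of quiescence and recirculation, 7 were lower (25.9%, against 6.12% of all genes) and 2 were higher (7.41%, against 8.16%), and the median was −0.01, as for all genes. Klf2, a factor that keeps T cells quiescent and drives exit receptors, was at 44.5 and 41.4 CPM in the Ad-control libraries and 17.2 and 16.97 CPM in the Ad-c-Rel libraries. Both Ad-c-Rel values lay far below both Ad-control values (log2 fold change −1.33, SE 0.105, adjusted p = 6.22e-07). Tsc22d3, a glucocorticoid-induced gene, fell from 375 and 356 CPM to 279 and 285 CPM (−0.37, SE 0.0730, adjusted p = 0.00292). Ccr7, a lymph node homing receptor gene, went the other way, from 917 and 922 CPM to 1359.7 and 1341 CPM (0.55, SE 0.0719, adjusted p = 7.02e-05). Only 4 members were lower without Ad-c-Rel replicate 1 and 4 without Ad-c-Rel replicate 2. Among 23 homing receptors and integrins, 8 were higher and 3 lower (median 0.22), or 5 higher without Ad-c-Rel replicate 2. Ccr8 rose from 17.97 and 18.2 CPM to 45.7 and 47.4 CPM (1.36, SE 0.102, adjusted p = 3.76e-07), Ccr6 from 14.7 and 15.5 CPM to 32.9 and 31.6 CPM (1.09 ± 0.109 SE), Cxcr6 from 143 and 176 CPM to 289.7 and 284 CPM (0.85 ± 0.0906 SE) and the integrin gene Itgav from 58.3 and 53.2 CPM to 92.05 and 109.5 CPM (0.86 ± 0.0968 SE). The lower members were Gpr15 (−0.49) and Itgb7 (−0.42), both known for homing to gut, and S1pr4 (−0.26), whose call ended without any of 3 libraries (adjusted p 0.0683 to 0.358).

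Mitotic genes fell nearly as a whole. Of 60 listed, 57 were in the tables and tested, and 53 were lower and 0 higher, with a median log2 fold change of −1.11 against −0.01 for all genes. Their summed level was 3326 and 3586 CPM with Ad-control and 1917 and 2022 CPM with Ad-c-Rel. Ccnb2, a mitotic cyclin gene (chr9:70407689-70421554), was at 71.8 and 82.3 CPM in the Ad-control libraries and 26.6 and 23.6 CPM in the Ad-c-Rel libraries (log2 fold change −1.62, SE 0.104, adjusted p = 1.04e-07). Cdc20, which activates the ubiquitin ligase that ends mitosis, fell from 90.8 and 100.4 CPM to 37.7 and 36.8 CPM (−1.36, SE 0.0902, adjusted p = 1.24e-07), and Ube2c, the ubiquitin-conjugating enzyme of that ligase, from 72.4 and 81.1 CPM to 28.9 and 29.8 CPM (−1.39, SE 0.0961, adjusted p = 1.92e-07). Ccna2 fell from 66.5 and 63.5 CPM to 22.7 and 21.8 CPM (−1.55, SE 0.0968, adjusted p = 7.68e-08). In these 4 genes the replicates lay close together and the groups were far apart. Foxm1, a transcription factor of the G2 and M phases, was at 9.43 and 6.37 CPM in the Ad-control libraries and 3.12 and 2.12 CPM in the Ad-c-Rel libraries (−1.57, SE 0.250, adjusted p = 0.000513). The members not called were Bub3 (−0.12), Ncapg (−0.13), Smc4 (−0.17) and Pttg1 (0.03, below 0 when scaled to T cell identity genes). Between 51 and 53 members were lower when any 1 library was left out.

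DNA replication genes fell in part. Of 44, 17 were lower and 0 higher (median −0.34), with 11 lower without Ad-control replicate 2 and 10 without Ad-c-Rel replicate 1. Pold1, a DNA polymerase δ subunit gene, fell from 74.96 and 74.5 CPM to 46.8 and 46.1 CPM (−0.69, SE 0.0857, adjusted p = 4.7e-05). Lig1, which joins DNA fragments, fell from 17.9 and 20.6 CPM to 10.5 and 10.5 CPM (−0.88, SE 0.131, adjusted p = 0.000285), Mcm10 from 8.42 and 7.96 CPM to 3.64 and 3.93 CPM (−1.11, SE 0.186, adjusted p = 0.000806) and Rrm2, a subunit of the enzyme that makes deoxynucleotides, from 70.6 and 71.97 CPM to 41.9 and 49.2 CPM (−0.65, SE 0.0956, adjusted p = 0.000249). Pcna (0.10, adjusted p = 0.473) was not called. G1 regulators were mixed, with 4 higher and 4 lower of 27 (median −0.09), and 2 higher in DESeq2 or when either one of the Ad-control libraries was left out. Ccnd2, a cyclin that starts the cycle, rose from 536 and 589 CPM to 953 and 1126 CPM (0.88, SE 0.0881, adjusted p = 4.85e-06), and Cdkn1a, a kinase inhibitor that halts it, from 863 and 888 CPM to 1219 and 1209 CPM (0.47, SE 0.0721, adjusted p = 0.000334). Mxd3, a MAX partner, fell from 9.11 and 13.9 CPM to 3.99 and 4.06 CPM (−1.53, SE 0.210, adjusted p = 0.00012), and Myc was at 254 and 259 CPM with Ad-c-Rel and 229.8 and 216 CPM with Ad-control (0.20, SE 0.0737, adjusted p = 0.0779).

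Sequences before the starts of Ccnb2 and Cdc20 are shown because genes of the mitotic list, which fell together, often carry 2 short strings there. Both genes were picked as holding both strings. Ube2c holds both as well, while the windows of Ccnb1, Plk1, Aurka and Nek2 hold CCAAT but not TTTGAA in these bases. Capitals mark CCAAT, the letters bound by NF-Y, and TTTGAA, the letters of a cell cycle element known as CHR, on either strand, in the 250 bases before the RefSeq start (GRCm38.p6, 5′ to 3′). The windows are chr9:70421555-70421804 and chr4:118437344-118437593, both on the minus strand.
Ccnb2: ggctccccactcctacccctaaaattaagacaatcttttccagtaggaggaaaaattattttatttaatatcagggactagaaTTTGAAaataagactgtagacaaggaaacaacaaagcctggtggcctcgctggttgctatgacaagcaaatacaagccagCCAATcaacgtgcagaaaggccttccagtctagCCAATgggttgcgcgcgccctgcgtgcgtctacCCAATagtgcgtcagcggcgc
Cdc20: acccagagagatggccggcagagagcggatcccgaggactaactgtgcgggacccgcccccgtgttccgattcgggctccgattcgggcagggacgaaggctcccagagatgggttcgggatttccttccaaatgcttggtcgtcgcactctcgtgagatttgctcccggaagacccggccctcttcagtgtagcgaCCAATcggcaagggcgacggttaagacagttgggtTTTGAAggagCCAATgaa
In windows from 250 bases before to 50 after a start, TTTGAA was found in 72.5% of 51 windows of mitotic genes (48 genes matched), against 11.9% of windows of all tested genes and 17.9% of all windows. CCAAT was in 74.5%, against 38.0% and 37.4%. For all 717 lower genes, of which 581 matched, the shares were 20.9% and 49.6%, and for the 2-fold lower genes 44.7% and 61.7%. Genes called higher held TTTGAA in 10.8% and CCAAT in 34.9% of windows. The DNA replication list held TTTGAA in 13.3% and CCAAT in 57.8% of 45 windows. The strings are matched letters, and no factor's binding was measured here.

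Survival and stress genes rose in part. Of 15 tested BCL-2 family members, 5 were higher and 0 lower (median 0.13). Bcl2l1, which encodes the survival protein BCL-XL, was at 127 and 143 CPM in the Ad-control libraries and 228 and 232 CPM in the Ad-c-Rel libraries (log2 fold change 0.77, SE 0.0796, adjusted p = 7.5e-06), and Pmaip1, which encodes the death-promoting NOXA, rose from 113 and 123 CPM to 159 and 196 CPM (0.59, SE 0.0950, adjusted p = 0.000573). Bcl2a1b (1.27) and Bcl2a1d (1.46) were higher too, but they are near-identical copies, so their single values are uncertain. Of 17 heat shock genes, 9 were higher and 0 lower (median 0.30), or 6 without Ad-c-Rel replicate 2. Hspa1a and Hspa1b, neighbouring copies of HSP70, rose from 5.09 and 4.38 CPM to 19.4 and 19.9 CPM (2.06 ± 0.149 SE) and from 3.58 and 3.43 CPM to 16.4 and 15.8 CPM (2.2 ± 0.162 SE), and reads shared by these copies cannot be assigned with certainty. Hspa5, the chaperone BiP of the endoplasmic reticulum, rose from 541 and 588 CPM to 862 and 898 CPM (0.64, SE 0.0757, adjusted p = 2.75e-05). Of 15 p53 targets, 6 were higher and 0 lower (median 0.24), and DESeq2 called 3 higher. Perp was at 0.62 ± 0.0810 SE and Zmat3 at 0.50 ± 0.0881 SE. In the integrated stress response list, 7 of 15 were higher and 0 lower (median 0.25), or 3 without Ad-c-Rel replicate 1 and 4 when Ad-c-Rel replicate 2 or else Ad-control replicate 1 was left out. The members of smallest p were Ppp1r15a (0.49 ± 0.0801 SE) and Asns (0.57 ± 0.0983 SE).

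Glycolysis, which the series title names, changed in some members. Of 24 tested genes, 7 were higher and 2 lower (median 0.05), and 4 were higher when either Ad-c-Rel library was left out. Their summed level was 42087 and 41765 CPM with Ad-control and 42884 and 42431 CPM with Ad-c-Rel. Hk2, a hexokinase gene that starts glucose breakdown, was at 50.3 and 49.4 CPM in the Ad-control libraries and 66.3 and 80.1 CPM in the Ad-c-Rel libraries (log2 fold change 0.55, SE 0.0989, adjusted p = 0.00139). The glucose transporter genes Slc2a1 (300.2 and 301 CPM with Ad-c-Rel and 239.8 and 229 CPM with Ad-control, 0.36, SE 0.0726, adjusted p = 0.00379) and Slc2a3 (2875 and 3246 CPM with Ad-c-Rel and 2097 and 2437 CPM with Ad-control, 0.43, SE 0.0885, adjusted p = 0.00401) and the lactate transporter gene Slc16a1 (0.35 ± 0.0819 SE) were among the members of smallest p. Of 21 TCA cycle genes, 5 were lower and 0 higher (median −0.09), and 2 or 3 were lower when any 1 library was left out. Odc1, the enzyme that starts polyamine synthesis, rose from 344 and 303 CPM to 634 and 605 CPM (0.94, SE 0.0803, adjusted p = 1.22e-06), the largest change in an amino acid list with 7 of 23 higher and 1 lower (median 0.20). That count was 4 without Ad-c-Rel replicate 2. Sterol and fatty acid genes were lower in 3 of 26 and higher in 1 (median −0.11), with 1 lower without Ad-control replicate 1 and 7 without Ad-control replicate 2. In the reported fit 11.5% of this list were lower and 3.85% higher, beside 6.12% and 8.16% of all genes. Acly, the enzyme that makes cytosolic acetyl-CoA, was the higher member (0.50 ± 0.0750 SE), and Dhcr7, of cholesterol synthesis, was lower (−0.53). No cytosolic ribosomal protein gene was called by edgeR in either direction among 41 tested (median 0.02).

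Interferon response genes were higher in 3 and lower in 4 of 24 (median −0.13). Ifit1 rose from 0.314 and 0.498 CPM to 2.72 and 4.80 CPM (3.15, SE 0.421, adjusted p = 9.35e-05). With 5 and 10 counts in Ad-control, it could be tested only through its Ad-c-Rel reads, so the count of 3 is partly set by the filter. Gbp6, an interferon-induced GTPase gene, was among the lower members, falling from 47.9 and 51.02 CPM to 26.4 and 28.6 CPM (−0.85, SE 0.0992, adjusted p = 2.52e-05). With Ad-control replicate 1 left out, 2 were lower, and likewise with Ad-c-Rel replicate 2 left out. Of 18 JAK-STAT genes, 3 were higher and 1 lower (median 0.06), or 1 higher in DESeq2, without either one of the Ad-control libraries, or without Ad-c-Rel replicate 2. In the reported fit 16.7% of the JAK-STAT list were higher and 5.56% lower, beside 8.16% and 6.12% of all genes. Pim2, a survival kinase gene, rose from 404 and 402 CPM to 726 and 725 CPM (0.85, SE 0.0719, adjusted p = 1.13e-06), and Socs3, which restrains IL-6 signalling, fell from 306 and 246 CPM to 205 and 179 CPM (−0.52, SE 0.0990, adjusted p = 0.00241). Granule genes were higher in 5 of 10 tested (median 0.44), or 3 in DESeq2 or without Ad-control replicate 2. Nkg7 rose from 7.92 and 8.46 CPM to 20.02 and 23.5 CPM (1.41, SE 0.137, adjusted p = 4.21e-06) and Srgn, the granule proteoglycan gene, from 937 and 937 CPM to 1634 and 1519 CPM (0.75, SE 0.0746, adjusted p = 4.81e-06). Among 15 T cell identity genes, 2 were higher and 1 lower (median 0.09). These are 13.3% and 6.67%, beside 8.16% and 6.12% of all genes.

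The 12 largest increases in genes that reached 5 CPM on average in Ad-c-Rel included genes of several kinds. After Prss34, Mcpt8, Il2, Ccl3, Rel and Hdc came Mmp10, a matrix metalloproteinase gene, from 0.440 and 1.14 CPM to 5.15 and 4.99 CPM (2.61, SE 0.332, adjusted p = 5.8e-05). Pdzk1ip1, a small membrane protein gene, rose from 2.01 and 2.44 CPM to 10.4 and 10.5 CPM (2.22, SE 0.197, adjusted p = 1.73e-06). Both were low in Ad-control. On the lower side all of the 12 largest changes lay between −2.17 and −1.48, and most act in cell division. Pif1, a DNA helicase gene, fell from 12.1 and 10.2 CPM to 2.08 and 2.87 CPM (−2.17, SE 0.207, adjusted p = 3.42e-06). Nek2, a centrosome kinase gene, fell from 34.7 and 32.95 CPM to 11.5 and 9.80 CPM (−1.66 ± 0.121 SE). Troap (−1.72), Cit (−1.56) and Aspm (−1.53) encode proteins of the spindle or of cytokinesis. Mtfr2 (−1.72), Ccdc18 (−1.63) and Parpbp completed the set with Ccnb2, Ccna2, Foxm1 and Mxd3.

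Some genes were almost absent from Ad-control. Genes with at most 3 reads over the Ad-control libraries and at least 10 over the Ad-c-Rel libraries numbered 72, against 27 the other way round. Ccl22, a chemokine gene, had 0 and 2 counts with Ad-control and 33 and 30 with Ad-c-Rel, a ratio of 34.05 (95% exact counting interval 9.04 to 287). Ccl6 had 0 reads with Ad-control and 54 with Ad-c-Rel, at least 19.5-fold higher when 3 counts are set as the limit for the Ad-control group. Cxcl2 had 0 and 18 reads, at least 6.49-fold higher by the same limit, and was too low to be tested. Intervals and floors cover counting error only.

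Genes that responded to Ad-c-Rel were also read in the 4 libraries of the miR-21 comparison, which shares no library with it. Those libraries, 2 per group, come from miR-21-/- or Control mice, and the TH17(23) medium held IL-23, IL-1β and IL-6. There edgeR called 0 of 13428 genes (0% background), so directions are given without calls. At an unadjusted p under 0.05, 1219 genes were higher and 1262 lower among the 11614 tested in both comparisons. The 948 genes higher with Ad-c-Rel and tested there had a median log2 fold change, miR-21-/- over Control, of −0.23, with 69.6% below 0, against −0.01 and 50.5% for all genes. The 717 lower genes had a median of 0.21, with 69.6% above 0. At unadjusted p under 0.05, 68 of the former were higher and 241 lower, and of the latter 171 were higher and 20 lower.

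The 2-fold sets lay further apart, with a median of −0.49 for the 177 higher genes tested there (74.6% below 0) and 0.50 for the 108 lower genes (85.2% above 0). Leaving out each miR-21-/- or Control library in turn, a check chosen after seeing the data, gave 64.2% to 69.4% below 0 for the higher genes and 67.8% to 73.5% above 0 for the lower genes, while all genes had 46.8% to 50.4% below 0. All 57 mitotic genes were above 0 (median 0.54), and 22 of 23 effector cytokines were below 0 (median −0.67). Il17f was at −2.54 there and Cdc20 at 1.16, while Rel itself was at 0.60, none of them called (adjusted p = 0.135, 0.126 and 0.161). Not every list pointed the other way. The NF-κB inhibitor list had a median of 0.06, and all 41 ribosomal protein genes, of which none was called with Ad-c-Rel, were above 0 as well. DNA replication genes, lower in part with Ad-c-Rel, were below 0 there in 32 of 44 (median −0.14). The p53 targets, higher in part with Ad-c-Rel, were above 0 there in 14 of 15 (median 0.57). Prss34 (5.19, adjusted p = 0.117) and Mcpt8 (2.43, adjusted p = 0.129) were above 0 in both comparisons but were not called in the miR-21 comparison. Of the basophil and mast cell list, 4 members were above 0 there and 4 below (median 0.14). In TH17 cells sorted from the central nervous system against those from ileum (called: 4% of genes higher and 5.66% lower), the sets did not line up in 1 direction. All genes higher with Ad-c-Rel had a median of −0.28 there and all lower genes 0.31, but the 2-fold higher set had 0.51 and the 2-fold lower set 0.14, against 0.05 for all genes.

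**Figure D5:**
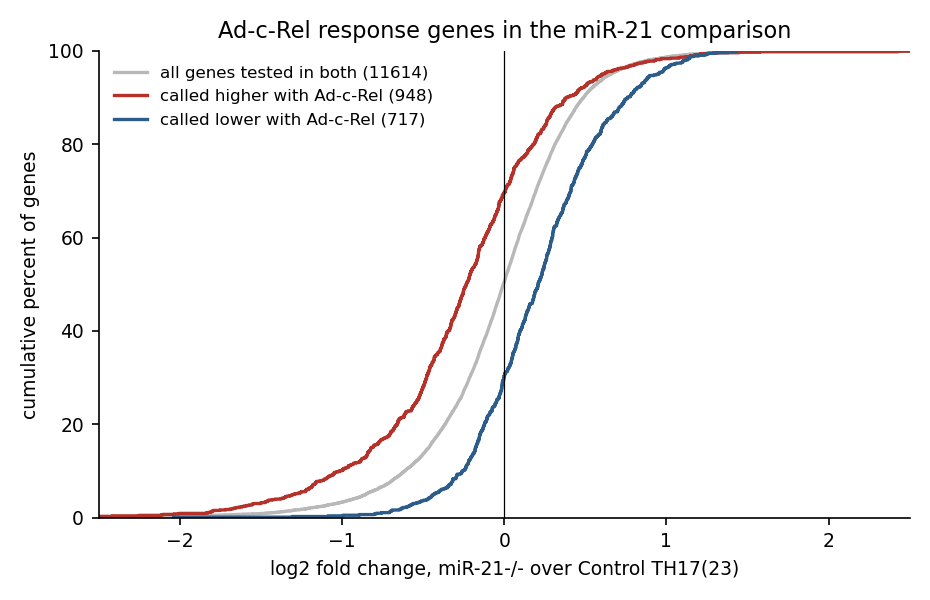
Lines give the cumulative percent of genes (vertical axis) up to each log2 fold change, miR-21-/- over Control in TH17(23) cells (horizontal axis), for genes called higher (red, 948) and lower (blue, 717) with Ad-c-Rel and for all genes tested in both (grey, 11614). At 0 the red line is at 69.6%, the grey line at 50.5% and the blue line at 30.4%.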

How the data were processed

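The deposited tables list raw counts by gene symbol. Per the submitters' processing notes, tools included HTSeq 0.11.0, TopHat2 2.1.0, DESeq2, HOMER, SAMtools, Bowtie2, Trim Galore 0.4.4 and CASAVA 1.4, with build mm10; which tool made which file is not said. For these 4 libraries the kit, the annotation and the strand setting were not given in the sources used here, so reads of overlapping or antisense genes may not be told apart.

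Lines that name no gene were removed. In R 4.3.3, counts were fitted by edgeR 4.0.16 (TMM, filterByExpr, quasi-likelihood F test, two-sided, group only, Benjamini-Hochberg threshold 0.05), after the code was tested on simulated data. SE was derived from the F statistic (log2 fold change divided by its root), so it restates the test. The miR-21 and the tissue comparisons were fitted in the same way, each on its own libraries. DESeq2 1.42.0, other scalings, other filters, a replicate block and other sets of libraries were tried as alternatives. Promoter letters are from RefSeq windows of GRCm38.p6.

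Genes, markers and the 35 lists (765 genes) were chosen with earlier results of these data known. Named were the 7 markers and Peli1, the 12 largest called changes each way (mean of 5 CPM or more, no overlap, leaving out predicted genes, clone names and antigen receptor segments), at most 5 called genes per list in order of p, and every NF-κB subunit and inhibitor. Any other named gene was chosen after its values were seen. Some genes that this rule names are not reported here.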

Additional observations from a re-analysis of the deposited data

How the results depend on the processing

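With 2 libraries per group the counts of calls moved with the fit, while none of the 164 called genes of the naming rule changed sign in any alternative that left out a library or changed the scaling. Genes called higher numbered 956 in the reported fit, 636 in DESeq2 (629 of them shared), 606 when scaled to T cell identity genes, and 537 to 784 when 1 library was left out, lowest without Ad-c-Rel replicate 2 (537) and without Ad-control replicate 1 (541). Genes called lower numbered 717, 431 in DESeq2, 829 when scaled to T cell identity genes and 389 to 597 when 1 library was left out, lowest without the same libraries (389 and 394). Deviations of same-numbered libraries correlated at 0.0435, and the labels tie them by nothing but the number, so they were not treated as pairs. With the replicate number as a block, 1488 were higher and 1314 lower, and 29 DNA replication genes were lower. That fit held all 956 and 717 reported calls.

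One fit over all 12 libraries, which includes the groups of other cells and cultures, called 18 genes higher and 1 lower. Members called higher fell there to 2 of the NF-κB inhibitor list and 1 effector cytokine. Members called fell to 0 for the TNF family, upstream NF-κB, mitotic, DNA replication and quiescence lists. Of the markers Rel kept its call, and Ccl4 (2.56, adjusted p = 0.0855), Ccnb2 (−1.63, 0.119), Csf2 (2.21, 0.574), Il17f (0.96, 1), Il2 (3.40, 0.586) and Klf2 (−1.34, 0.1005) lost theirs with nearly the same fold. The cause was not tested.

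Leaving out 1 library gave 10 to 14 lower DNA replication genes, 4 to 8 lower quiescence genes, 7 to 9 higher TNF family genes and 3 to 5 higher upstream genes. Signs changed in 6 of the 171 genes of the naming rule, none of them called. With 1 library left out, Bcl3 ran from −0.29 to 0.024 (above 0 without Ad-control replicate 1) and Cyld from −0.090 to 0.032 (0.023 without Ad-control replicate 2, 0.032 without Ad-c-Rel replicate 1). Nfkb1 ran from −0.022 (without Ad-c-Rel replicate 1) to 0.35, Otud7b from −0.12 to 0.086 (0.086 without Ad-control replicate 1, 0.081 without Ad-c-Rel replicate 2) and Relb from −0.13 (without Ad-control replicate 2) to 0.29. Tnip2 was at −0.0087 when scaled to T cell identity genes. Of 164 named genes with a call, 37 lost it without some 1 library and 12 were not called by DESeq2. Groups of 2 and low reads in Ad-control limit the precision of the largest folds.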
